A study of Mus musculus with 55 samples.

Results

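Hsd3b5, Elovl3, Cyp4a12a, Cyp4a12b, Keg1, Selenbp2 and Ugt2b1 are liver enzyme genes that depend on the pulsed release of growth hormone in male mice. They were taken by name, as 7 of the 24475 gene rows of the count table. They were chosen by their known dependence on growth hormone and by their measured difference between OTC and WT livers under the control vector. That difference is therefore described below without a test. The other comparisons were tested. Those of a hairpin against the control vector, and of the strain difference in a hairpin's effect, reuse the same control livers, so their p values are not independent of the choice.

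In male rodents growth hormone reaches the liver in pulses separated by long gaps, and in females it arrives almost continuously. Each pulse acts through the growth hormone receptor and the kinase JAK2 on the transcription factor STAT5, which moves to the nucleus and back with every pulse. The male pattern sustains genes for steroid, fatty acid and xenobiotic metabolism. The female pattern induces the repressor Cux2 and a different set of enzymes.

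The livers came from 55 male mice, 5 months old at collection. WT mice were the hybrid B6EiC3SnF1/J. OTC mice carried the spf-ash allele of Otc, an X-linked gene of the urea cycle (stock name: B6EiC3Sn a/A-Otcspf-ash/J). The 2 kinds of mice are different stocks, so the Otc allele and the rest of the genetic background cannot be told apart. At 4 months each mouse received, by vein, an adeno-associated virus carrying a scrambled hairpin (control), a hairpin against the glutaminase gene Gls2 (sh-Gls2) or a hairpin against the glutamate dehydrogenase gene Glud1 (sh-Glud1). All 6 groups carried a virus and ate a 40% protein diet from week 2 until collection at week 5. The control vector was given to 10 WT and 8 OTC mice, sh-Gls2 to 10 of each, and sh-Glud1 to 9 WT and 8 OTC mice, each with its own library.

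Total counts per library lay between 14489866 and 22781052. Levels are given as CPM, counts scaled to a common library total after a TMM correction for RNA composition. The target genes followed the labels: Otc lay between 43.02 and 87.2 CPM in OTC livers and between 473 and 596 CPM in WT livers. Gls2 lay between 159 and 255 CPM in the sh-Gls2 libraries, and Glud1 between 254 and 588 CPM in the sh-Glud1 libraries, below every library of the other vectors. Hepatocyte markers (Alb, Ttr, Apoa1, Apob, Serpina1c, Tat and Cps1) summed to at least 81750 CPM in every library, and tubule markers of the kidney, where Keg1 is also active, to at most 2.69 CPM. In bulk tissue, fewer cells of a type and less RNA per cell cannot be told apart.

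Members with near-identical relatives share reads, which limits what their rows can separate. Over coding positions 647 to 706 the mouse Cyp4a12a and Cyp4a12b transcripts differ at 4 bases (GENCODE M21 on GRCm38, plus strand, differing bases in capitals), and over the whole coding sequence at 23 of 1524.
Cyp4a12a: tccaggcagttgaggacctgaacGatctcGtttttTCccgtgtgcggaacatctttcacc
Cyp4a12b: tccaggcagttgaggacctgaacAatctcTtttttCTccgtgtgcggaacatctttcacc
Of the 50-base windows of the Cyp4a12a coding sequence, 54.8% also occur in Cyp4a12b. Selenbp2 and its relative Selenbp1 differ at 18 of 1416 coding bases, and 55.3% of the Selenbp2 windows are shared. Coding positions 397 to 456 hold 4 of those differences.
Selenbp2: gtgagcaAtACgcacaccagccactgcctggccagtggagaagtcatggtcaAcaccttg
Selenbp1: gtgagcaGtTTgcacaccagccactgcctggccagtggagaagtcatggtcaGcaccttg
For Hsd3b5 29.7% of windows are shared, most of them with Hsd3b4. Elovl3, Keg1 and Ugt2b1 share none of their coding windows, so this limit was not seen in their coding sequences. Untranslated parts of the transcripts and inexact matches were not examined. How the counting program assigned shared reads is not given in the sources used here.

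Because STAT5 carries the growth hormone signal, the 250 bases upstream of each start were searched for its palindrome TTCNNNGAA on both strands. RefSeq start windows (GRCm38.p6) were found for Hsd3b5, Keg1, Selenbp2 and Ugt2b1. The RefSeq start of Hsd3b5 lies upstream of the GENCODE start, so its window was not used further. The Keg1 window, chr19:12695540-12695789 on the plus strand, holds 2 matches (in capitals).
Keg1: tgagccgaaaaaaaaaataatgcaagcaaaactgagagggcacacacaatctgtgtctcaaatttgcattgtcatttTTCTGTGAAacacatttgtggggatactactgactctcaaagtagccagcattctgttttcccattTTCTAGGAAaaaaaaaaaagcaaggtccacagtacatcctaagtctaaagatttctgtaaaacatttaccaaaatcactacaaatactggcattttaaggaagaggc
The Selenbp2 and Ugt2b1 windows hold no match. Among 32851 RefSeq start windows of the same length, 7.02% hold the palindrome. The strings ATTGAT and TATAAA were also searched. Each occurred in 1 of the 4 member windows, ATTGAT in that of Ugt2b1 and TATAAA in that of Selenbp2. They occur in 6.72% and 12.4% of all windows. A match of letters is a description and not a binding site.

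Under the control vector every member had a lower mean in OTC than in WT livers. Across all genes tested 16.4% were called lower in that comparison (edgeR quasi-likelihood F test, adjusted p below 0.05). The members' median log2 fold change was -3.05, against 0.02 for all 13311 tested genes. These values bear on the choice of the genes and are given as a description.

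Hsd3b5 encodes a liver enzyme of the 3β-hydroxysteroid dehydrogenase family that works as a 3-ketosteroid reductase (GRCm38, chr3:98618634-98630252, minus strand). Its lowest, median and highest levels were 1.40, 202 and 270 CPM in WT control and 0.199, 1.40 and 12.1 CPM in OTC control. The ranges overlapped through 1 WT liver, mouse 13, whose 1.40 CPM stood apart from the next lowest, 81.2 CPM. The log2 fold change was -5.75 ± 0.89 (SE), and -6.38 without OTC control mouse 38, the highest of its group.

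Elovl3 elongates very long chain fatty acids (chr19:46131897-46135694, plus strand). It was at 118, 407 and 807 CPM (lowest, median, highest) in WT control and at 0.270, 15.9 and 129 CPM in OTC control. Only the OTC liver of mouse 38 reached the WT range, which began at mouse 13. The log2 fold change was -3.49 ± 0.90 (SE).

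Cyp4a12a and Cyp4a12b encode fatty acid ω-hydroxylases of the male mouse (chr4:115299046-115332815 and chr4:115411624-115439034, plus strand). Cyp4a12a was at 343, 656 and 886 CPM in WT control and at 1.51, 42.5 and 292 CPM in OTC control. Every OTC liver lay below every WT liver, as did 1.91% of all tested genes, and within OTC the highest liver was 193-fold above the lowest. Cyp4a12b was at 5.94, 39.2 and 136 CPM in WT control and at 0, 2.61 and 15.9 CPM in OTC control. Its 0 was in the unnumbered OTC control, where 3 counts would be 0.178 CPM. The log2 fold changes were -3.05 ± 0.74 (SE) and -3.50 ± 0.61 (SE). Without OTC control mouse 72, the highest of its group for both genes, they were -3.74 and -4.16.

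Keg1, a glycine acyltransferase-like gene (chr19:12695786-12719902, plus strand), was at 101, 137 and 199 CPM in WT control and at 23.4, 46.8 and 73.9 CPM in OTC control. Ugt2b1, a UDP-glucuronosyltransferase that conjugates steroids and xenobiotics (chr5:86916638-86926530, minus strand), was at 413, 655 and 933 CPM and at 85, 187 and 255 CPM. For both genes the groups did not overlap. The log2 fold changes were -1.70 ± 0.25 (SE) for Keg1 and -1.93 ± 0.20 (SE) for Ugt2b1, the smallest of the set.

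Selenbp2, a selenium-binding protein first described as an acetaminophen-binding protein (chr3:94693556-94704413, plus strand), was at 7.40, 264 and 860 CPM in WT control and at 16, 43.1 and 98.1 CPM in OTC control. The groups overlapped, since 3 WT livers, mice 13, 11 and 41, lay below the highest OTC liver. Its log2 fold change was -2.95 ± 0.68 (SE).

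**Figure D1:**
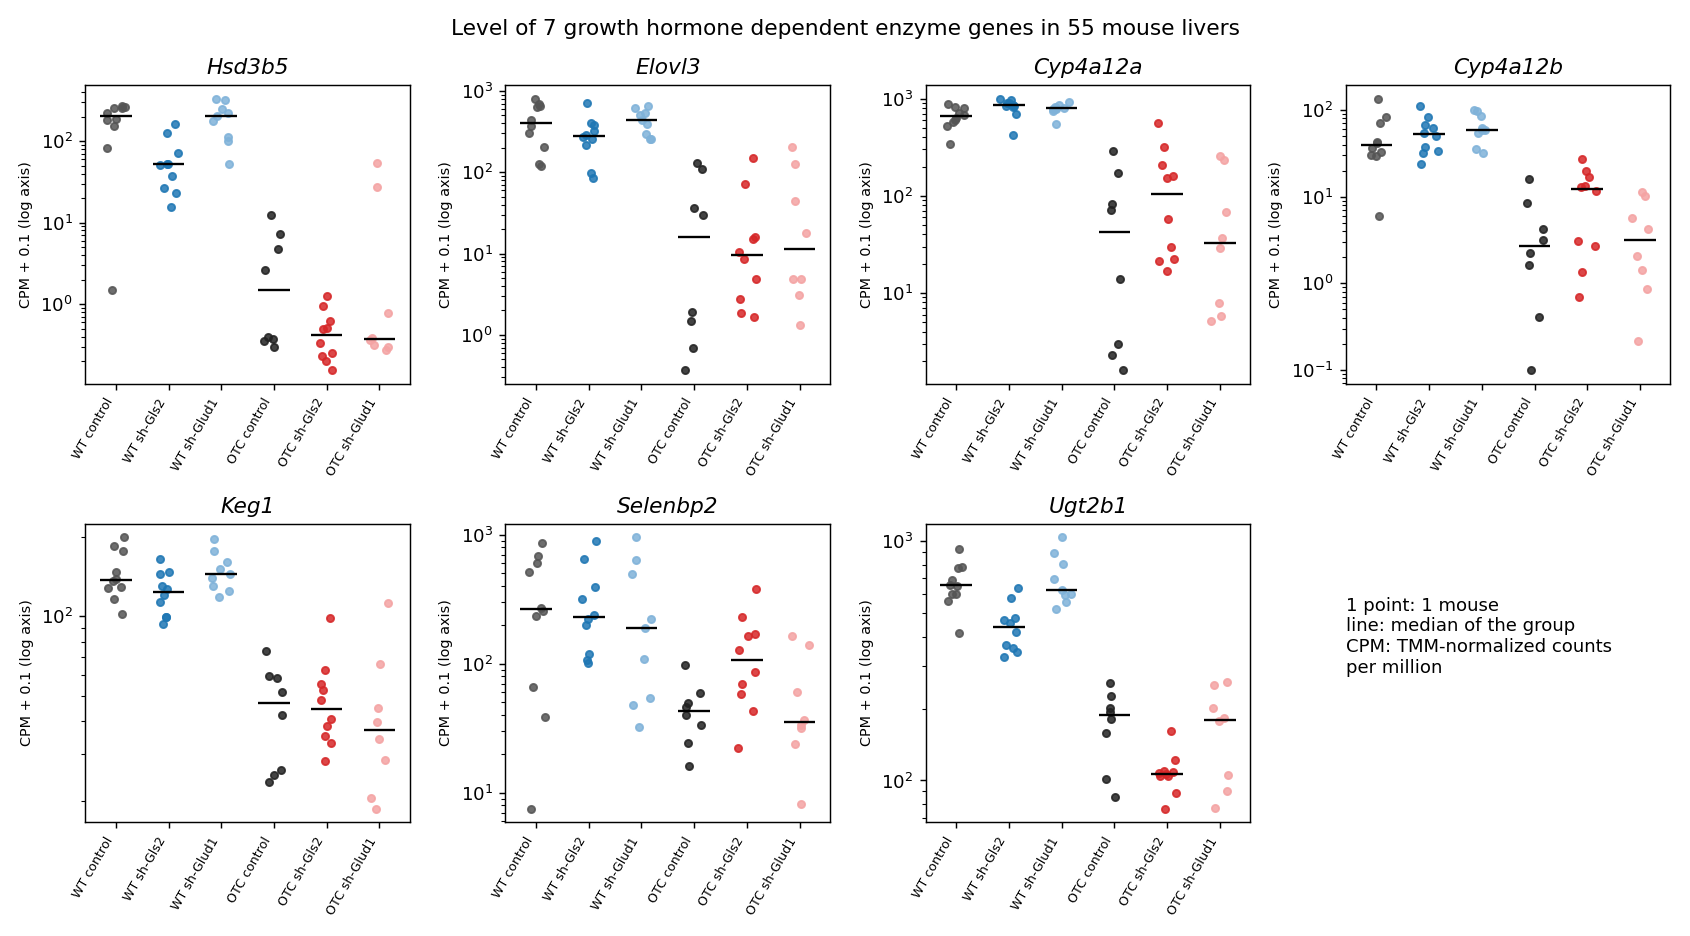
Level of each gene in the 55 livers, by group; points are mice, lines are group medians, and the vertical axis is CPM + 0.1 on a log scale. OTC medians lie below WT medians, OTC livers spread over a wider range for Elovl3, Cyp4a12a and Cyp4a12b, the strains overlap in part for every gene but Ugt2b1, and 1 WT control liver lies at 1.40 CPM for Hsd3b5.

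Per length, the order of the genes differed between WT control and OTC control livers, and also between vectors within a strain. In WT sh-Gls2 livers Cyp4a12a came first, with a median of 584 TPM, and in OTC sh-Gls2 livers Selenbp2 did, at 118 TPM. By median TPM (the authors' transcript abundance, scaled for gene length and library total), WT control livers had Elovl3 first at 542, then Cyp4a12a at 428, Ugt2b1 at 396, Selenbp2 at 244, Hsd3b5 at 207, Keg1 at 132 and Cyp4a12b at 25.5. In OTC control livers Ugt2b1 came first at 125 TPM, followed by Keg1 at 50.2, Selenbp2 at 45.2, Cyp4a12a at 28.96, Elovl3 at 14.5, Cyp4a12b at 1.95 and Hsd3b5 at 1.58. The ranges of all neighbouring genes overlapped in OTC control livers. The first and last gene of this order stood apart from each other, Ugt2b1 at 51.5 to 164 TPM and Hsd3b5 at 0.21 to 13.0 TPM. In WT control livers neighbouring ranges overlapped too, except those of Keg1 and Cyp4a12b. Cyp4a12a made up a median of 94.1% of the summed Cyp4a12a and Cyp4a12b TPM in WT control and 95.0% in OTC control.

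OTC and WT livers were compared again under each hairpin, in mice that the control comparison did not contain. Under sh-Gls2, 6 of the 7 genes were lower in OTC livers, where 14.9% of all tested genes were called lower. Under sh-Glud1 all 7 were lower, against 15.1% of all tested genes. The members' median log2 fold changes were -2.35 under sh-Gls2 and -3.11 under sh-Glud1, and the medians of all genes were 0.01 and 0.02.

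Hsd3b5 was at 15.3, 51.6 and 163 CPM in WT sh-Gls2 and at 0.0552, 0.316 and 1.16 CPM in OTC sh-Gls2. No OTC liver reached the WT range, which held for 1.71% of tested genes in this direction. The OTC values rest on between 1 and 23 counts per library. The log2 fold change was -7.24 ± 0.96 (SE, adjusted p = 1.38e-07, edgeR). Under sh-Glud1 it was -4.26 ± 0.82 (SE, adjusted p = 5.95e-05, edgeR). There the levels were 52.3, 204 and 333 CPM in WT and 0.171, 0.276 and 53.7 CPM in OTC. Of the 8 OTC sh-Glud1 livers, 6 were at 0.672 CPM or less, whereas mice 42 and 44 had 27.3 and 53.7 CPM, and mouse 44 reached the WT range.

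Elovl3 was at 84.5, 278 and 714 CPM in WT sh-Gls2 and at 1.54, 9.41 and 150.3 CPM in OTC sh-Gls2 (log2 fold change -3.43 ± 0.82 SE, edgeR adjusted p = 0.00131). Under sh-Glud1 it was at 257, 433 and 651 CPM in WT and at 1.23, 11.3 and 203 CPM in OTC (-3.11 ± 0.89 SE, edgeR adjusted p = 0.00528). OTC sh-Gls2 mouse 39 was the 1 OTC liver inside the WT range, and under sh-Glud1 the groups did not overlap, as for 2.88% of tested genes.

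Cyp4a12a fell in OTC by 2.42 ± 0.66 (SE) on the log2 scale under sh-Gls2 (edgeR adjusted p = 0.00403) and by 3.28 ± 0.75 (SE) under sh-Glud1 (edgeR adjusted p = 0.000588). Its levels were 425, 850.0 and 1001 CPM in WT sh-Gls2, 16.9, 105 and 555 CPM in OTC sh-Gls2, 549, 795 and 915 CPM in WT sh-Glud1, and 5.08, 32.8 and 257 CPM in OTC sh-Glud1. Mouse 39 was again the only OTC liver to reach a WT range. Cyp4a12b fell by 2.35 ± 0.52 (SE; edgeR adjusted p = 0.000563) under sh-Gls2, and under sh-Glud1 it fell by 3.87 ± 0.63 (SE; edgeR adjusted p = 4.1e-06). Its OTC levels were 0.590, 12.3 and 27.0 CPM under sh-Gls2 and 0.114, 3.05 and 11.4 CPM under sh-Glud1.

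Ugt2b1 had the smallest adjusted p values of the set. It was at 329, 437 and 638 CPM in WT sh-Gls2 and at 76.0, 107 and 161 CPM in OTC sh-Gls2 (log2 fold change -2.03 ± 0.19 SE, edgeR adjusted p = 1.21e-11). Under sh-Glud1 it was at 519, 628 and 1041 CPM in WT and at 76.95, 180 and 257 CPM in OTC (-2.07 ± 0.21 SE, edgeR adjusted p = 8.41e-11). In all 3 vector arms every OTC liver lay below every WT liver for this gene, and the log2 fold changes were between -2.07 and -1.93. Keg1 fell by 1.33 ± 0.23 (SE; edgeR adjusted p = 1.6e-05) under sh-Gls2 and by 1.71 ± 0.25 (SE; edgeR adjusted p = 6.51e-07) under sh-Glud1.

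Selenbp2 gave the weakest contrast. Under sh-Gls2 it was at 101, 231 and 899 CPM in WT and at 22.02, 107 and 382 CPM in OTC, with a log2 fold change of -1.26 ± 0.59 (SE, edgeR adjusted p = 0.0988). The groups overlapped, and 5 of 10 OTC livers lay below the lowest WT liver. The gene was called without OTC sh-Gls2 mouse 39, at -1.59 (edgeR adjusted p = 0.0403), and with only the groups compared in the fit (edgeR adjusted p = 0.0414). Under sh-Glud1 it was lower in OTC by a log2 fold change of -2.29 ± 0.67 (SE, edgeR adjusted p = 0.00629), and 3 of 8 OTC livers lay below the WT range.

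**Figure D2:**
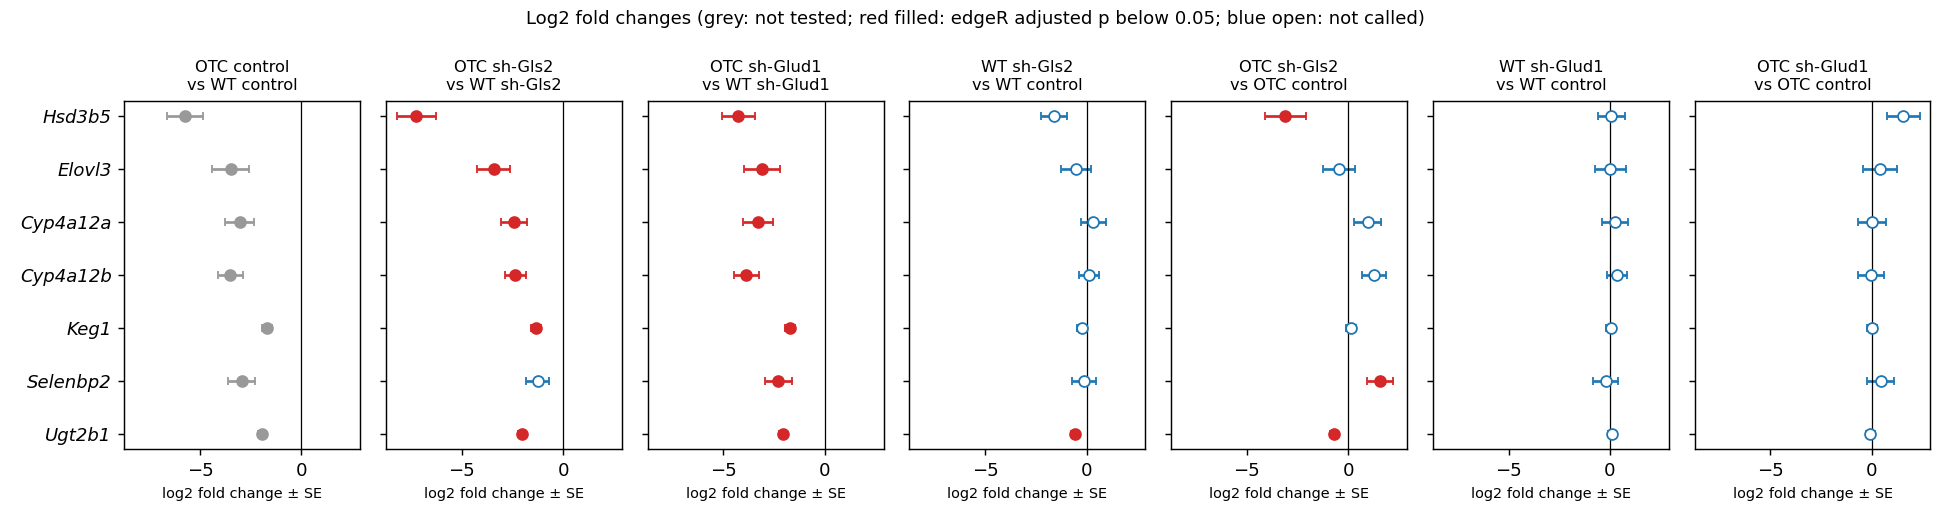
Log2 fold change of each gene in 7 comparisons, with bars of 1 SE; the comparison used for the choice of genes is grey and untested, filled red points passed an edgeR adjusted p of 0.05, and open blue points did not. All 7 genes are lower in OTC in the 3 strain comparisons, with Selenbp2 under sh-Gls2 not called, and no gene is called in the sh-Glud1 comparisons within a strain, where Hsd3b5 in OTC lies farthest from 0, at 1.56.

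Within WT livers, sh-Gls2 lowered 1 of the 7 genes against the control vector, and 17.2% of all tested genes were called lower. Ugt2b1 fell by 0.59 ± 0.18 (SE) on the log2 scale (edgeR adjusted p = 0.00888), with medians of 655 and 437 CPM, and 4 of 10 treated livers lay below every control. Hsd3b5 had a median of 51.6 CPM against 202 CPM, and a log2 fold change of -1.60 ± 0.65 (SE, edgeR adjusted p = 0.0505), just outside the threshold. It was called without WT control mouse 13, at -1.75 (edgeR adjusted p = 0.0246), with only the groups compared in the fit (edgeR adjusted p = 0.019), and also without WT control mouse 11 or without WT sh-Gls2 mouse 36 or 1. The other 5 genes had log2 fold changes between -0.52 and 0.32 and were not called. The members' median was -0.23 and that of all genes -0.01.

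In OTC livers sh-Gls2 gave calls in both directions: 2 of 7 lower, against 22.6% of all tested genes, and 1 of 7 higher, against 20.2%. Ugt2b1 fell by 0.69 ± 0.19 (SE) on the log2 scale (edgeR adjusted p = 0.0029), and the median went from 187 to 107 CPM. The call was made in each of the 18 fits that left out 1 library. Hsd3b5 fell by 3.09 ± 1.02 (SE; edgeR adjusted p = 0.0120), and the median went from 1.40 to 0.316 CPM. The OTC control libraries held between 4 and 232 Hsd3b5 counts, and without the highest, mouse 38, the log2 fold change was -2.47 (edgeR adjusted p = 0.0593). On the log2(TPM + 1) scale it was -1.11 and was not called (limma adjusted p = 0.199), nor was it on log2(TPM + 0.1) (limma adjusted p = 0.0974).

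Selenbp2 rose by 1.56 ± 0.64 (SE) on the log2 scale under sh-Gls2 in OTC livers (edgeR adjusted p = 0.0449); the medians were 43.1 and 107 CPM. The groups overlapped, with controls between 16 and 98.1 CPM and treated livers between 22.02 and 382 CPM. It was not called without a filter on low counts (edgeR adjusted p = 0.0598), on log2(TPM + 1) (limma adjusted p = 0.112), on log2(TPM + 0.1) (limma adjusted p = 0.113) or without OTC control mice 3 and 67 (edgeR adjusted p = 0.138). The call was made in 6 of the 18 fits without 1 library. The 12 others gave log2 fold changes with adjusted p up to 0.115, the highest of which was the fit without OTC sh-Gls2 mouse 39. Cyp4a12b was at a median of 12.3 against 2.61 CPM, with a log2 fold change of 1.27 ± 0.58 (SE, edgeR adjusted p = 0.0728), and was called without OTC control mouse 72, at 1.93 (edgeR adjusted p = 0.00997). It was called also without OTC sh-Gls2 mouse 50 or 49. Cyp4a12a, at 0.95, Elovl3, at -0.46, and Keg1, at 0.13, were not called, although Cyp4a12a was called on log2(TPM + 0.1), at 1.75 (limma adjusted p = 0.0426).

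Markers of some liver cell types moved with sh-Gls2. Macrophage markers summed to medians of 83.2 CPM in WT control and 129 CPM in WT sh-Gls2, and to 91.6 and 146 CPM in the OTC groups. Stellate cell markers summed to medians of 221 and 335 CPM in WT and to 254 and 359 CPM in OTC. Endothelial markers summed to medians of 165 and 190.5 CPM in WT and to 160 and 202 CPM in OTC. By edgeR 5 of 6 macrophage and 3 of 6 stellate markers rose in each strain, and 1 of 5 endothelial markers rose in WT and 5 of 5 in OTC. Of the 7 hepatocyte markers 1 fell in WT and 4 fell in OTC. Their summed level had medians of 111900 CPM in control and 120100 CPM under sh-Gls2 in WT, and of 110600 and 100200 CPM in OTC. Of 4 bile duct markers 1 rose in WT and 0 in OTC, and of 3 tested T cell markers 0 were called in either strain. Under sh-Gls2 17.2% of all tested genes were called lower in WT, and 22.6% lower and 20.2% higher in OTC. The share called higher in WT is not given here, so the rises counted in WT have no share beside them. The part of these cell types in the sh-Gls2 results was not tested.

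No difference between the strains in the effect of sh-Gls2 was called for any of the 7 genes by the test of the difference itself (edgeR; 0 called, 0 at an unadjusted p below 0.05, and 0 by DESeq2 and limma). Across all genes 0.338% were called. The difference nearest the threshold was that of Selenbp2, 1.69 ± 0.86 (SE) on the log2 scale (edgeR adjusted p = 0.457).

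Against the control vector sh-Glud1 gave no call among the 7 genes in either strain (edgeR; 0 at an unadjusted p below 0.05, and 0 by DESeq2 and limma). Across all genes 0.0225% were called in WT and 0.015% in OTC. In WT the medians under sh-Glud1 and control were 204 and 202 CPM for Hsd3b5, 433 and 407 CPM for Elovl3, and 628 and 655 CPM for Ugt2b1. The largest difference was Hsd3b5 in OTC, with a log2 fold change of 1.56 ± 0.81 (SE, edgeR adjusted p = 0.988), although the treated median, 0.276 CPM, was below the control median of 1.40 CPM. Mice 42 and 44 were the 2 high livers of that group. The strain difference in the sh-Glud1 effect was called for 0 of the 7 genes and for 0 of all tested genes (edgeR; 0 members at an unadjusted p below 0.05). The control groups were shared by the sh-Gls2 and sh-Glud1 comparisons.

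The OTC livers varied far more among themselves than the WT livers did. The SD of log2 CPM around the group means was 2.37 over 26 OTC livers and 0.332 over 29 WT livers for Cyp4a12a. It was 2.76 and 0.857 for Elovl3, 2.32 and 1.57 for Hsd3b5, 2.17 and 0.872 for Cyp4a12b, and 0.679 and 0.275 for Keg1. Ugt2b1 had 0.513 and 0.325, and Selenbp2 went the other way, with 1.18 in OTC and 1.73 in WT. The median tested gene had an SD of 0.244 in OTC and 0.205 in WT.

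High and low OTC livers were the same for most of the genes. OTC sh-Gls2 mouse 39 had the highest level of its group for 7 of 7 genes. OTC sh-Glud1 mice 42 and 44 were both among the 3 highest of their group for 7 of 7, and OTC control mouse 3 was among the 3 lowest for 7 of 7. After subtracting group means, the 21 pairs of members had Pearson correlations between 0.46 and 0.91 over the 26 OTC livers, with a median of 0.72. Over the 29 WT livers the median was 0.56, and 0.44 without WT control mouse 13. The pairs share libraries, and the Cyp4a12 pair also shares reads.

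**Figure D3:**
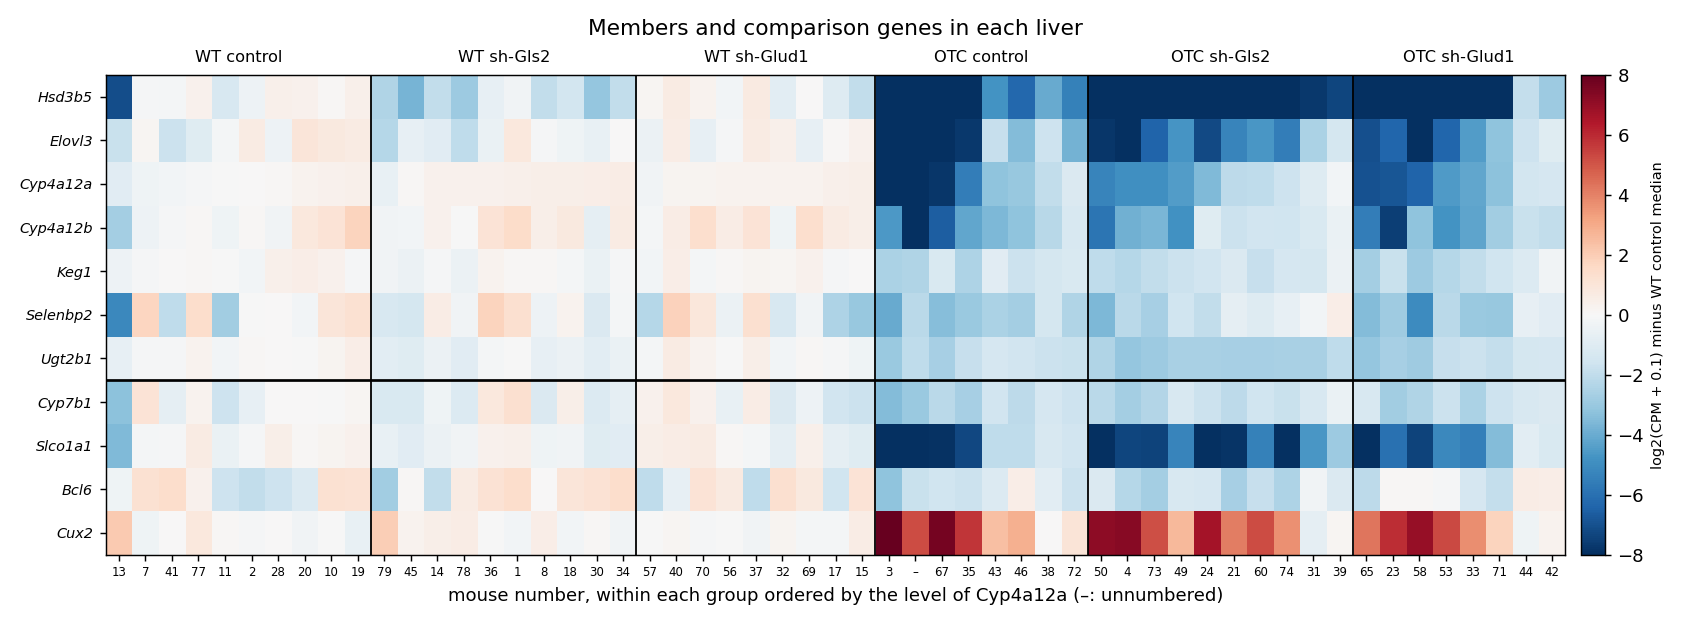
Each column is 1 liver, ordered within its group by Cyp4a12a; colour is log2(CPM + 0.1) minus the WT control median, for the 7 genes (above the line) and for 4 comparison genes (below it). OTC livers with low Cyp4a12a have high Cux2, and OTC sh-Glud1 mice 42 and 44 have Cux2 near the WT level.

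Genes whose levels followed each member most closely were found over all 55 livers after subtracting group means. Elovl3 and Cyp4a12a were both most like Ces3a, with Pearson r of 0.90 and 0.91, and both had Slco1a1 among the closest 3 genes, at 0.87 and 0.85. Hsd3b5 was most like Serpina1e (0.88), Selenbp2 most like Cyp7b1 (0.81), Cyp4a12b most like Mup21 (0.77), Keg1 most like Hsd3b3 (0.76) and Ugt2b1 most like Slc22a30 (0.83). Serpina1e and Mup21 belong to families with near-identical copies, so their rows are uncertain.

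Other male-biased liver genes were also lower in OTC livers. Of 19 tested genes of that list, 18 fell in the control arm, 17 under sh-Gls2 and 18 under sh-Glud1, and none rose. The shares of all tested genes called lower were 16.4%, 14.9% and 15.1% in these arms. The list was chosen with earlier results of these data known, so its counts are given as a description. In the control arm the list's median log2 fold change was -1.34, against 0.02 for all genes. Hsd3b2, a steroid dehydrogenase, fell by 1.28 ± 0.14 (SE), C9, a terminal complement component, by 1.62 ± 0.26 (SE), and Fitm1, a lipid droplet protein, by 3.21 ± 0.53 (SE; edgeR adjusted p of 4.2e-06 or less for each). Cyp7b1, an oxysterol hydroxylase, and Slco1a1, an organic anion transporter, were picked after their values were seen; they fell by 1.96 and 2.67.

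Female-biased genes did not move as a block. Of 26 tested, 8 rose and 6 fell in OTC under the control vector, 7 rose and 3 fell under sh-Gls2, and 8 rose and 2 fell under sh-Glud1. The shares of all tested genes called higher and lower were 19.9% and 16.4%, 14.5% and 14.9%, and 19.9% and 15.1% in these arms. Without WT control mouse 13 the control count was 10 and 2, and on log2(TPM + 1) it was 9 and 1 of 24. Fmo2 rose by 4.09 ± 0.61 (SE) and Cyp39a1, an oxysterol hydroxylase, by 1.65 ± 0.26 (SE; edgeR adjusted p of 2.3e-06 or less for both). Cyp2b13, a female-specific cytochrome P450 picked after its values were seen, had a log2 fold change of -6.79, but -2.61 without WT control mouse 13 (edgeR adjusted p = 0.0782).

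Regulators of these genes moved in both directions. Of 21 tested, 6 rose and 6 fell in the control arm and under sh-Glud1, and 4 rose and 5 fell under sh-Gls2. Of all tested genes 19.9% were called higher and 16.4% lower in the control arm, 19.9% and 15.1% under sh-Glud1, and 14.5% and 14.9% under sh-Gls2. On log2(TPM + 1), by limma, these counts (control, sh-Glud1, sh-Gls2) were 7 and 3, 8 and 2, and 8 and 4. Cux2, a repressor of male-biased genes that is normally scarce in male liver, rose by 6.09 ± 0.97 (SE; edgeR adjusted p = 2.8e-06), 5.46 ± 0.95 and 5.38 ± 1.08 in the 3 arms. Its median was 0.260 CPM in WT control and 7.78 CPM in OTC control, with 99.1 CPM in mouse 3. Trim24, a transcriptional cofactor, rose by 1.60 ± 0.24 (SE; edgeR adjusted p = 1.2e-06). Bcl6, a repressor of female-biased genes in male liver, had a log2 fold change of -1.43 (edgeR adjusted p = 0.0303) and lost its call in 9 fits without 1 library.

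Cux2 ran opposite to the members among OTC livers, and also among WT livers. Its Pearson correlations with the 7 genes, after subtracting group means, lay between -0.92 and -0.60 over 26 OTC livers, with a median of -0.76. Over 29 WT livers, where Cux2 was scarce, they lay between -0.74 and -0.30, with a median of -0.67. By rank (Spearman) the WT correlations lay between -0.61 for Elovl3 and -0.20 for Keg1. Only WT control mouse 13, at 1.46 CPM, and WT sh-Gls2 mouse 79, at 1.33 CPM, exceeded 0.537 CPM of Cux2 among WT livers. Correlations of Cux2 without these livers were not computed, so how far the WT values rest on them is not known. Trim24 also ran opposite to the members, with median Pearson correlations of -0.74 over OTC livers and -0.52 over WT livers. Mouse 3, the lowest for Elovl3 and Cyp4a12a in OTC control, had the highest Cux2 of that group, and mouse 38, the highest for Elovl3, had 0.261 CPM. OTC sh-Gls2 mouse 39 had 0.303 CPM of Cux2, and OTC sh-Glud1 mice 42 and 44 had 0.343 and 0.185 CPM. The points share libraries and these correlations carry no test.

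**Figure D4:**
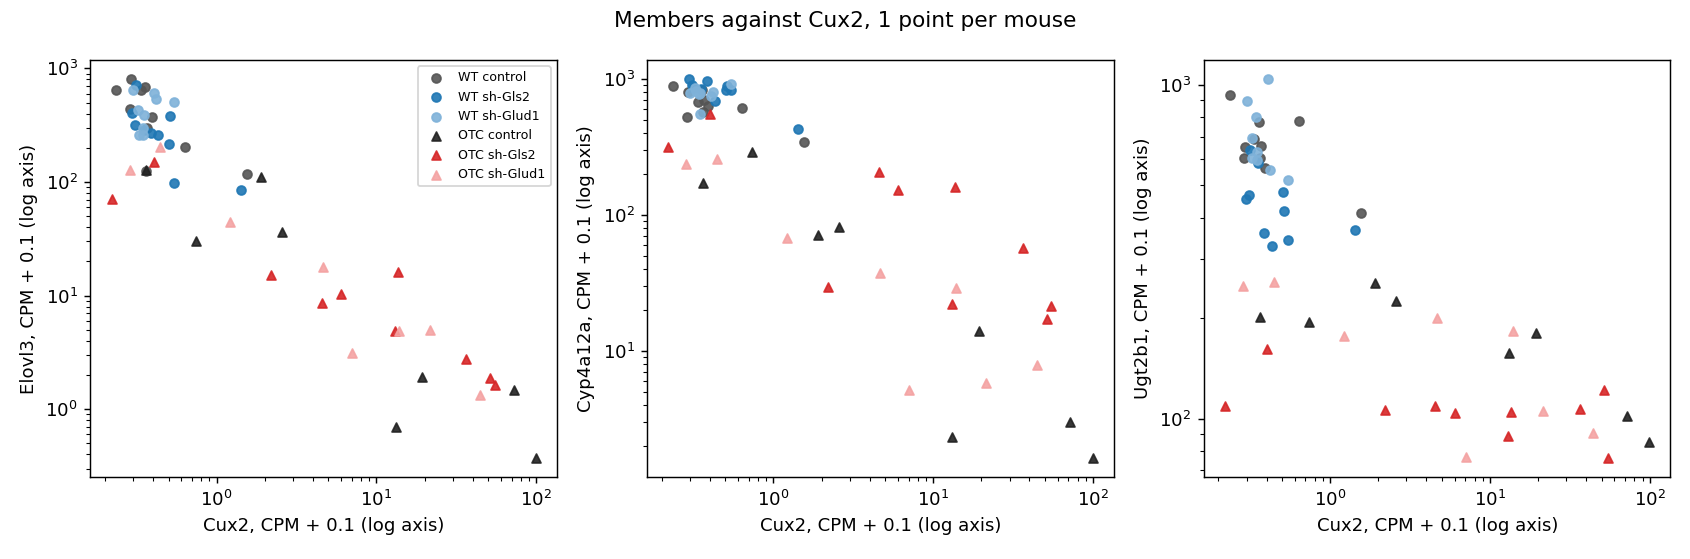
Level of Elovl3, Cyp4a12a and Ugt2b1 against Cux2 in each liver, both axes CPM + 0.1 on log scales; circles are WT and triangles OTC. OTC livers with Cux2 near the WT level include those with the highest Elovl3 and Cyp4a12a, and all OTC livers stay below the WT livers for Ugt2b1.

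Of the genes that carry the growth hormone signal, 13 were tested. In OTC against WT livers 3 fell and 2 rose under the control vector, beside 16.4% and 19.9% of all tested genes. In the sh-Gls2 arm 5 fell and 2 rose, beside 14.9% and 14.5%. In the sh-Glud1 arm 4 fell and 1 rose, beside 15.1% and 19.9%. In OTC control livers Ghr, the growth hormone receptor, fell by 0.96 ± 0.15 (SE; edgeR adjusted p = 2e-06), Stat5a by 0.60 ± 0.13 (SE; edgeR adjusted p = 0.00015) and Igfals, which binds insulin-like growth factors in blood, by 0.41 ± 0.13 (SE; edgeR adjusted p = 0.01). Socs2, a feedback inhibitor, rose by 1.68 ± 0.49 (SE; edgeR adjusted p = 0.0055), and Sh2b1 by 0.15 ± 0.04 (SE). Stat5b, the main form in liver, had a log2 fold change of -0.15 ± 0.09 (SE), Jak2 of -0.03 and Igf1 of 0.13, and none of these was called. Under sh-Gls2 5 genes of the list fell against control in WT and 3 in OTC, beside 17.2% and 22.6% of all tested genes, and none rose; on log2(TPM + 1) 1 and 2 fell (limma). Both edgeR counts include Igfals, Igf1 and Sh2b1.

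Close relatives of the members did not share their pattern in full. Selenbp1, which shares most of its coding sequence with Selenbp2, rose in OTC by 0.63 ± 0.11, 0.56 ± 0.10 and 0.68 ± 0.11 (SE; edgeR adjusted p of 3.9e-05 or less) in the 3 arms, opposite to Selenbp2. Cyp4a14, a peroxisome proliferator responsive relative of Cyp4a12a, rose by 2.46 ± 0.65 (SE; edgeR adjusted p = 0.0025). Of 11 tested Cyp4 genes beside the members, 4 rose and 4 fell in the control arm, and 6 and 2 on log2(TPM + 1). In the control arm 3 of 4 tested Hsd3b genes fell, 2 of 5 Elovl genes and 2 of 8 Ugt2 genes. Of 3 tested glycine acyltransferase genes related to Keg1 1 fell, and no gene of the last 4 families rose in that arm. Under sh-Gls2 1 Elovl and 1 Ugt2 gene rose in OTC against WT, and under sh-Glud1 1 Ugt2 gene did. The shares of all tested genes called higher and lower in the control arm were 19.9% and 16.4%.

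For the members, 1 WT control liver, that of mouse 13, differed from its group in the direction of the OTC livers. It had the lowest level of 7 of 7 genes: 118 CPM for Elovl3, 343 CPM for Cyp4a12a, 5.94 CPM for Cyp4a12b, 101 CPM for Keg1, 7.40 CPM for Selenbp2 and 413 CPM for Ugt2b1, beside Hsd3b5. It was below all 9 other WT controls for 18 of 20 other male-biased genes and above them for 21 of 29 female-biased genes. Of 16 circadian clock genes 0 were below or above all of them, and of 14 growth hormone signalling genes 1 was above. Of 21 regulators 4 were above and 1 below. The share over all tested genes was not counted. Cyp2b9 was at 587 CPM, Cyp2b13 at 154 CPM and Cyp2c40 at 182 CPM in this liver. In OTC control livers Cyp2b13 was at most 0.535 CPM. Ddx3y, a Y-linked gene, lay between 65.5 and 140 CPM in its group.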

How the data were processed

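The authors deposited counts per gene symbol, whole numbers that had not been normalized, and TPM values, in 1 table each. Libraries were poly(A)-selected and strand-specific, with 12 cycles of PCR and no molecular identifiers named, per the labels' protocols. The submitters' processing notes name CASAVA 1.8.2, FastQC and GRCm38. Which aligner, counter and annotation were used is not given in the sources used here. The labels name no sequencing batch. The mouse number of 1 OTC control column matches no sample title, so it is called unnumbered and was placed by its strain and vector; the covariate fit used the column's own number.

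Of 24475 genes, 13311 passed edgeR's filterByExpr (minimum count 10, minimum total 15), all 7 members among them. Counts were scaled by TMM factors between 0.924 and 1.12. A quasi-likelihood F test (edgeR 4.0.16, R 4.3.3) was fitted over 55 libraries with 1 term for each group. It was two-sided, with Benjamini-Hochberg adjustment over all tested genes and calls at an adjusted p below 0.05. The SE is the size of the log2 fold change over the square root of F. DESeq2 1.42.0, limma 3.58.1 on log2(TPM + 1) and log2(TPM + 0.1), other scaling and filtering, and fits leaving out libraries were alternatives. The pipeline was tested on simulated data. The members, lists and alternatives were chosen with earlier results of these data known. Named genes were the 7 members, up to 4 called genes of each list by adjusted p, of which part are given, the closest genes by correlation, and those said to be picked later. The values of 1 gene of the lists are not reported here. Separate mice are the replicates. Intervals of counting error were not used, since reads from PCR are not independent molecules.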

Additional observations from a re-analysis of the deposited data

Results flagged for a closer look

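In 4 of the 42 combinations of member and group tested with Dixon's criterion, 1 liver lay far from the rest of its group on the log2 scale; chance alone gives about 1 in 20. WT control mouse 13 was low for Hsd3b5, at 1.40 CPM beside a next lowest of 81.2 CPM, and for Cyp4a12b, at 5.94 CPM beside 29.1 CPM. WT sh-Gls2 mouse 79 was low for Cyp4a12a, at 425 CPM beside 693 CPM, and had 1.33 CPM of Cux2. WT sh-Glud1 mouse 57 was low for Cyp4a12a, at 549 CPM beside 748 CPM.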

How the results depend on the processing

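No paired analysis was possible because each mouse number occurs once and nothing pairs mice across groups. Among the 7 members no called fold change changed direction. The members called lower in OTC under sh-Glud1 were 7 and, under sh-Gls2, 6 or 7 in every alternative. In WT, sh-Gls2 lowered 2 members when only the compared groups were fitted, and 1 to 2 when 1 library was left out. In OTC, sh-Gls2 raised 0 members without a filter on low counts, on log2(TPM + 1) and without OTC control mice 3 and 67, and 0 to 2 without 1 library. It lowered 1 on log2(TPM + 1) and log2(TPM + 0.1), and 1 to 2 without 1 library. On log2(TPM + 0.1) the 1 raised member was Cyp4a12a, at 1.75 (limma adjusted p = 0.0426). The cause was not tested. Genes called for sh-Glud1 in OTC numbered 1 with only the compared groups. Genes whose sh-Gls2 effect differed between strains numbered 45, but 24 without the filter, 91 with DESeq2, 19 with only the compared groups, 21 on log2(TPM + 1), 23 on log2(TPM + 0.1), 11 without OTC control mice 3 and 67, and 17 to 77 without 1 library. On the TPM scale the median of all genes moved by 0.10 to 0.18 in the strain comparisons, against log2 fold changes of the members beyond -1. Depth limits Hsd3b5 and Cyp4a12b in OTC livers, where some libraries hold 5 counts or fewer.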
